A study of Mus musculus with 2 samples.

Results

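Reporter-silent regulatory T (Treg) cells were defined as the sorted cells in which no unique molecular identifier (UMI, a tag that marks 1 captured RNA molecule) of the tdTomato reporter transcript was counted. They made up 1347 of 3634 control cells (37.1%, 95% Clopper-Pearson interval 35.5 to 38.7) and 1496 of 3390 rescued cells (44.1%, interval 42.4 to 45.8), or 2843 of 7024 cells in all. The count of tdTomato chose these cells, so the absence of the reporter is not a result, and every comparison below is of other genes.

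Both libraries held GFP-sorted TCRβ+CD4+CD8-NK1.1- Treg cells from spleen and lymph node of male C57BL/6 mice, profiled with droplet-based 3′ RNA sequencing. Control mice were Foxp3DTR-GFP/yCd4creERT2, in which an intact Foxp3 gene is read out together with a fusion of the diphtheria toxin receptor and GFP. Rescued mice were Foxp3LSL/yCd4creERT2, whose Foxp3 stays off behind a loxP-flanked stop sequence until Cre excises that sequence. Both groups carried the tamoxifen-inducible Cre under Cd4 control and a Rosa26 tdTomato reporter with its own stop cassette, received 4-hydroxytamoxifen on postnatal day 14, and were labelled as 7 months old. Cells of 5 control mice and of 4 rescued mice were pooled before capture, so each group was 1 library without a replicate, and genotype, pool and library cannot be told apart. All intervals are 95% intervals that cover counting error alone, and no p-values were computed.

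Treg cells are CD4 T cells that restrain immune responses and depend on the transcription factor Foxp3. Resting Treg cells recirculate through lymphoid organs and express genes such as Klf2, Tcf7 and Ccr7, whereas activated Treg cells gain receptors for tissue entry, costimulatory and inhibitory receptors, and suppressor molecules. Because 4-hydroxytamoxifen was given once, in early life, the reporter marks control cells that already expressed Cd4-driven Cre at that time, together with their descendants. In rescued mice the same Cre event both restores Foxp3 and can turn on the reporter.

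A count of 0 does not by itself separate cells without the reporter from cells in which it was missed. The reporter-silent share was lower in deep than in shallow cells, from 45.9% of control cells and 50.7% of rescued cells with under 3000 UMIs to 16.2% and 32.7% of those with 6000 to under 10000 UMIs. In cells with at least 10000 UMIs, 4 of 81 control cells (4.94%, interval 1.36 to 12.2) and 19 of 142 rescued cells (13.4%, interval 8.25 to 20.1) were silent. When every cell was thinned to 1000 UMIs, 72.1% of control cells and 68.6% of rescued cells had no reporter UMI, the opposite order to the unthinned shares, so no order of the groups is read from them. With cells of 1 reporter UMI, just outside the threshold, the sets would hold 2314 control and 2127 rescued cells. Cells with 1 to 3 UMIs, 1819 control and 1085 rescued, are called reporter-low, and 468 control and 809 rescued cells with 4 or more UMIs are called reporter-high.

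**Figure D1:**
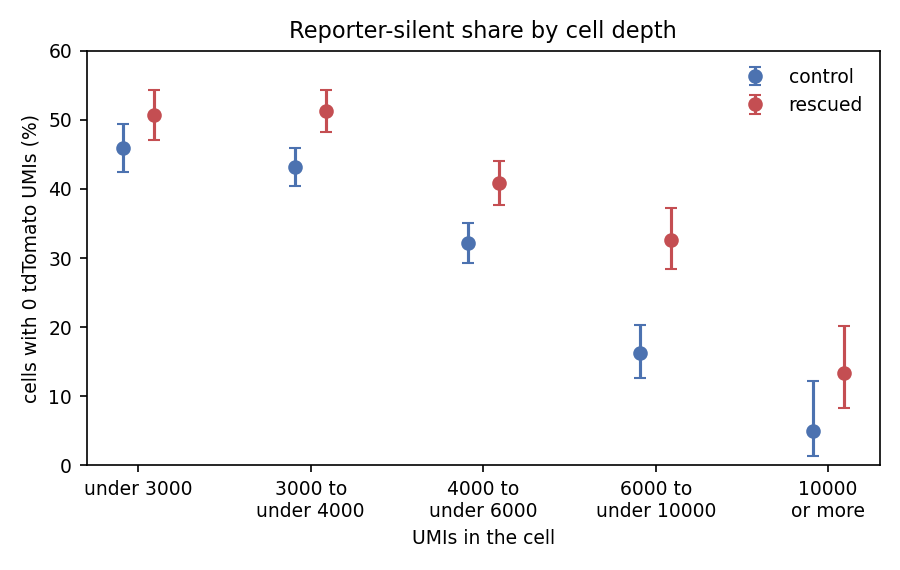
Percentage of cells with 0 tdTomato UMIs (vertical axis) by the UMIs in the cell (horizontal axis) in the control and rescued libraries. Points are shares and bars 95% Clopper-Pearson intervals. The share was lower in deep cells in both libraries, from 45.9% and 50.7% in the shallowest cells to 4.94% and 13.4% in the deepest.

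Silent cells of the groups were similar in depth, with a median of 3508 UMIs and 1686 genes per control cell and 3603 UMIs and 1774 genes per rescued cell, and a median of 9.47% and 9.29% mitochondrial UMIs. Summed over silent cells, the libraries held 4983594 and 6053678 UMIs, and levels are given as UMIs per 1000000 UMIs (CPM). The libraries shared 3 cell barcodes, of which 0 were among silent cells of both. General T cell genes were near equal (a median log2 ratio of 0.11 over 10 T cell and CD4 genes). Several defining markers of other cells were rare: Cd8a had 1 UMI in each group, the B cell gene Ms4a1 0 and 3 UMIs, and the myeloid gene Lyz2 2 and 5, although the myeloid-listed Ctss and Cst3, on which that list's median of 0.18 rested, were plentiful in both. The 10 detected CD8 T and NK markers summed to 62.0 CPM in control and 42.1 CPM in rescued silent cells, and the 10 B cell markers to 43.7 and 49.7 CPM. Ighm, the immunoglobulin μ heavy chain gene of B cells, which was on no list and was picked after its values were seen, was not rare: it had 3502 UMIs in control and 11360 in rescued silent cells (703 and 1877 CPM, a log2 ratio of 1.42, interval 1.36 to 1.47). Of 12 heat shock and other genes of tissue dissociation with at least 20 UMIs, 8 were lower in rescued silent cells and 4 higher, with a median log2 ratio of -0.51. The part of these signals in the results below was not tested.

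Foxp3, the engineered gene, was examined first. Foxp3 had 360 UMIs in control silent cells and 2933 in rescued silent cells, or 72.2 and 484 CPM. This was a log2 ratio, rescued over control, of 2.75 (interval 2.59 to 2.91). A Foxp3 UMI was present in 287 of 1347 control silent cells (21.3%, interval 19.1 to 23.6) and 1041 of 1496 rescued silent cells (69.6%, interval 67.2 to 71.9), and in 7.05% and 35.2% after thinning to 1000 UMIs. Both libraries were sorted for GFP made from the Foxp3 locus, so a cell without a Foxp3 UMI was not thereby a cell without Foxp3. The alleles differ in structure and their transcripts may be counted with different efficiency, which cannot be told apart from a difference in expression. By reporter class, control cells had 72.2, 86.5 and 81.5 CPM in the silent, low and high classes, and rescued cells 484, 465 and 452 CPM, so the groups stood apart in every class. No cell type that should lack Foxp3 or the genes below was captured, so the share of cells with a UMI from free RNA could not be measured.

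The wider set of Treg genes was also higher in rescued silent cells. All 19 Treg identity genes had a log2 ratio above 0, 13 of them at least 1.5-fold, with a median of 0.64 beside 0.05 over all 10411 genes with at least 20 UMIs and a ratio. Over 10415 genes, which include those with 0 UMIs in 1 group, 10.5% were at least 1.5-fold higher in rescued silent cells and 4.85% at least 1.5-fold lower. These shares are the background for the 1.5-fold counts of every list below. The median gene was itself above 0, so a count of list members above 0 is no excess by itself. Counts of list intervals off 0 are given without a share over all genes, so they only describe the members. Ikzf2, which encodes the Treg transcription factor Helios, had 5403 UMIs in control and 10074 in rescued silent cells (0.62, interval 0.57 to 0.67). Il2ra, the high-affinity chain of the IL-2 receptor, had 1240 and 2343 UMIs (0.64), and Tnfrsf9, which encodes the costimulatory receptor 4-1BB, had 413 and 1216 (1.28). At the other end, Ikzf4, encoding the Foxp3 partner Eos, was at 0.07 (interval -0.06 to 0.20), which counting error does not separate from 0. Among silent cells with a Foxp3 UMI, 287 control and 1041 rescued, the list median was 0.51.

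Across the transcriptome, 8202 genes had at least 100 UMIs in silent cells. The median log2 ratio was 0.04, and 5% of genes lay below -0.43 and 5% above 0.64. At least 1.5-fold higher levels in rescued silent cells were seen for 483 genes (5.89%) and at least 1.5-fold lower levels for 203 (2.48%). At 2-fold the counts were 174 (2.12%) and 64 (0.78%). Without replicates these shares describe 2 libraries.

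The 12 genes with the highest ratios among the 5391 with at least 300 UMIs were Gbp2b, Foxp3, Lilrb4a, Itgae, Fgl2, Epcam, Zcchc18, Neb, Cxcl10, Ttc39c, Myo1f and Asb2, with log2 ratios from 2.79 down to 2.04. Gbp2b, an interferon-inducible guanylate-binding protein (chr3:142594847-142619179, GRCm38), had 73 UMIs in control and 612 in rescued silent cells, a log2 ratio of 2.79 (interval 2.43 to 3.16). It was found in 44 control and 233 rescued silent cells, so a minority of cells carried it in either group. Itgae, the αE integrin chain CD103 that binds E-cadherin on epithelium (chr11:73090583-73147446), had 312 and 1904 UMIs, a log2 ratio of 2.33 (interval 2.16 to 2.51). A UMI of Itgae was present in 12.8% of control and 56.0% of rescued silent cells, and in 4.83% and 23.9% after thinning.

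Fgl2, a secreted fibrinogen-like protein with suppressor activity (chr5:21372642-21378374), had 137 and 810 UMIs and a log2 ratio of 2.28 (interval 2.02 to 2.56). Epcam, an epithelial adhesion molecule (chr17:87635979-87651129), had 123 and 725 UMIs, also at 2.28 (interval 2.0 to 2.57). Both were spread over many rescued cells, 446 with an Fgl2 UMI and 443 with an Epcam UMI, against 96 and 99 control cells. Lilrb4a, an inhibitory receptor of the immunoglobulin superfamily, had 39 and 299 UMIs (2.66, interval 2.17 to 3.18). It has a near-identical neighbour, and reads may be split between them. Cxcl10, a chemokine that attracts cells bearing Cxcr3, had 72 and 388 UMIs (2.15), but its 10 strongest cells held 69.4% of its control UMIs and 62.4% of its rescued UMIs. Its ratio in 4 depth bins of silent cells was 0.34, 3.27, 0.16 and 4.58 from the shallowest to the deepest, so this value rests on few cells.

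Among the 12 lowest genes, 1 is not reported here, and the 11 others were Ms4a4c, Ly6c1, Actn1, Igfbp4, Cd9, Bach2, Cmah, Tcf7, Satb1, Rasgrp2 and St8sia6, with log2 ratios from -3.06 to -1.43. Ms4a4c, a membrane protein of the Ms4a family (chr19:11404770-11427246), had 480 UMIs in control and 70 in rescued silent cells (-3.06, interval -3.44 to -2.69). Ly6c1, which encodes a form of the surface protein Ly6C (chr15:75044018-75048830), had 982 and 196 UMIs (-2.61, interval -2.83 to -2.38). Ly6c1 was found in 28.4% of control and 4.68% of rescued silent cells, or 14.6% and 2.07% after thinning. Both belong to families of close copies, between which reads may be split.

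Several of these genes encode nuclear factors of quiescent or memory-like T cells. Tcf7, which encodes TCF-1 (chr11:52252371-52283014), had 1243 and 524 UMIs (-1.53, interval -1.68 to -1.38), and the share of cells with a UMI was 54.6% in control and 23.6% in rescued silent cells. Satb1, a chromatin organiser of T cell development (chr17:51736187-51833290), had 1522 and 646 UMIs (-1.52, interval -1.65 to -1.38). Bach2, a repressor that limits effector differentiation (chr4:32238804-32586108), had 461 and 164 UMIs (-1.77, interval -2.04 to -1.51). Rasgrp2, an activator of the GTPase Rap1, had 774 and 340 UMIs (-1.47), and Cd9, a tetraspanin, 606 and 210 UMIs (-1.81).

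All 24 genes of the highest and lowest sets kept their direction in each of 4 depth bins of silent cells, and in reporter-low and reporter-high cells. The bins are parts of the silent cells that ranked these genes, so agreement in them is not independent. The interval of Cxcl10 held 0 in the shallowest bin (-0.64 to 1.35) and in the next to deepest (-0.49 to 0.81). In 23 of the 24 the ratio was smaller in size in reporter-high cells, Bach2 being the exception (-1.77 in silent and -2.01 in reporter-high cells). The genes were ranked on the silent cells, which by itself favours larger values there, and the interval of the difference between classes held 0 for 6 of the 24.

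**Figure D2:**
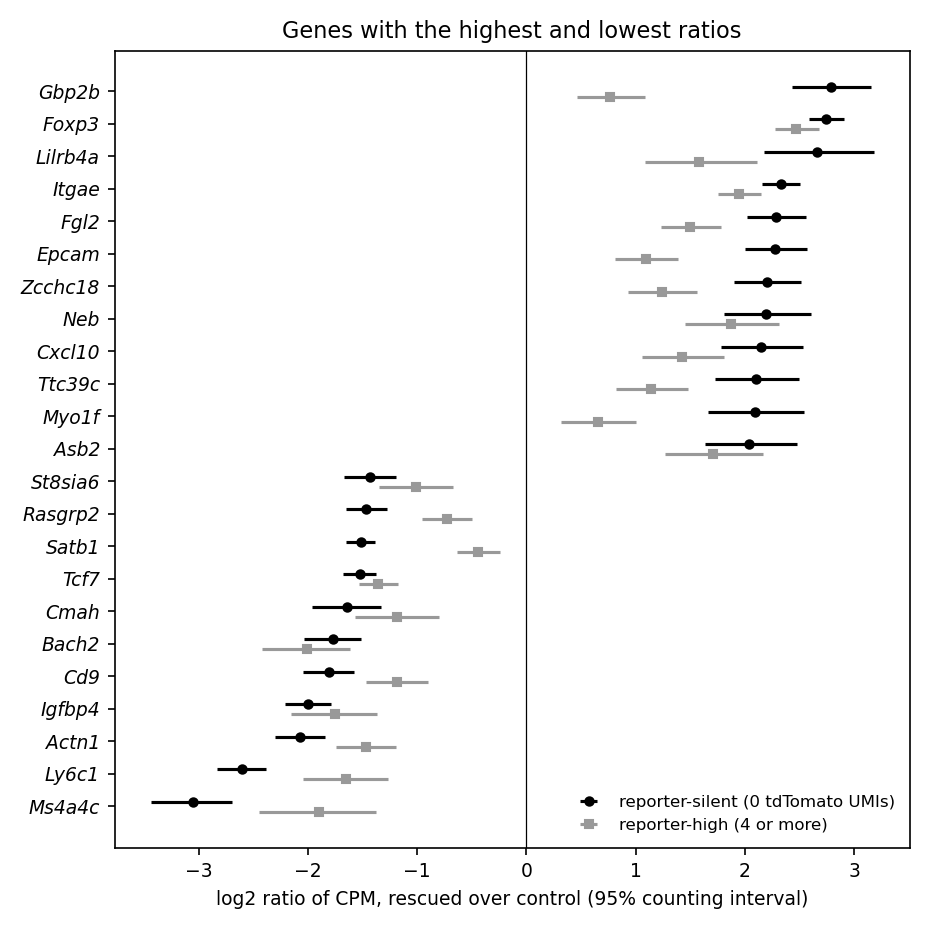
Log2 ratio of CPM, rescued over control (horizontal axis), for the genes with the highest and lowest ratios in reporter-silent cells, 23 in all. Black circles are silent cells and grey squares reporter-high cells, with 95% counting intervals. Gbp2b stands at 2.79 in silent and 0.77 in reporter-high cells, whereas Foxp3 stands at 2.75 and 2.47.

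Genes that the study linked to Treg activation were higher in rescued silent cells for 10 of 10 members, all at least 1.5-fold, with a median log2 ratio of 1.42. That list was chosen by the study on these samples, so its direction is not independent evidence. Of its receptors for tissue entry, Ccr4 had 41 and 203 UMIs (2.03), Cxcr3 305 and 1327 (1.84), and Ccr6 106 and 250 (0.96, but 0.045 in cells with a Foxp3 UMI). Icos, an inducible costimulatory receptor, had 896 UMIs in control and 3383 in rescued silent cells (1.64, interval 1.53 to 1.74) and was found in 31.7% and 65.1% of cells. Ctla4, the inhibitory receptor that Treg cells use to limit costimulation, had 1115 and 2937 UMIs (1.12). The factors Ahr, a ligand-activated receptor of barrier tissues, and Maf, which supports IL-10 production, were at 1.73 and 1.21. The list's smallest ratio was that of Tnfrsf18, which encodes the costimulatory receptor GITR (1675 and 3643 UMIs, 0.84).

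Genes of resting, recirculating T cells went the other way in 14 of 16 members, 12 of them at least 1.5-fold lower and 13 with an interval below 0, with a median log2 ratio of -1.27. Klf2, the factor that maintains lymphoid recirculation, had 4955 UMIs in control and 2505 in rescued silent cells (994 and 414 CPM, a log2 ratio of -1.26, interval -1.33 to -1.20). S1pr1, the receptor through which T cells leave lymph nodes, had 1138 and 548 UMIs (-1.33), and Ccr7, the chemokine receptor for lymph node entry, 1192 and 600 (-1.27). Bcl2, a survival factor, had 3431 and 2082 UMIs (-1.0), and Lef1, a partner of TCF-1, 1245 and 833 (-0.86). Not every member followed. Il7r, the IL-7 receptor chain, was higher in rescued silent cells with 1585 and 2746 UMIs (0.51, interval 0.42 to 0.60), Foxo1 was near equal (-0.04, interval -0.17 to 0.09), and Ly6c2 had only 10 and 19 UMIs (0.65, interval -0.53 to 1.91).

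**Figure D3:**
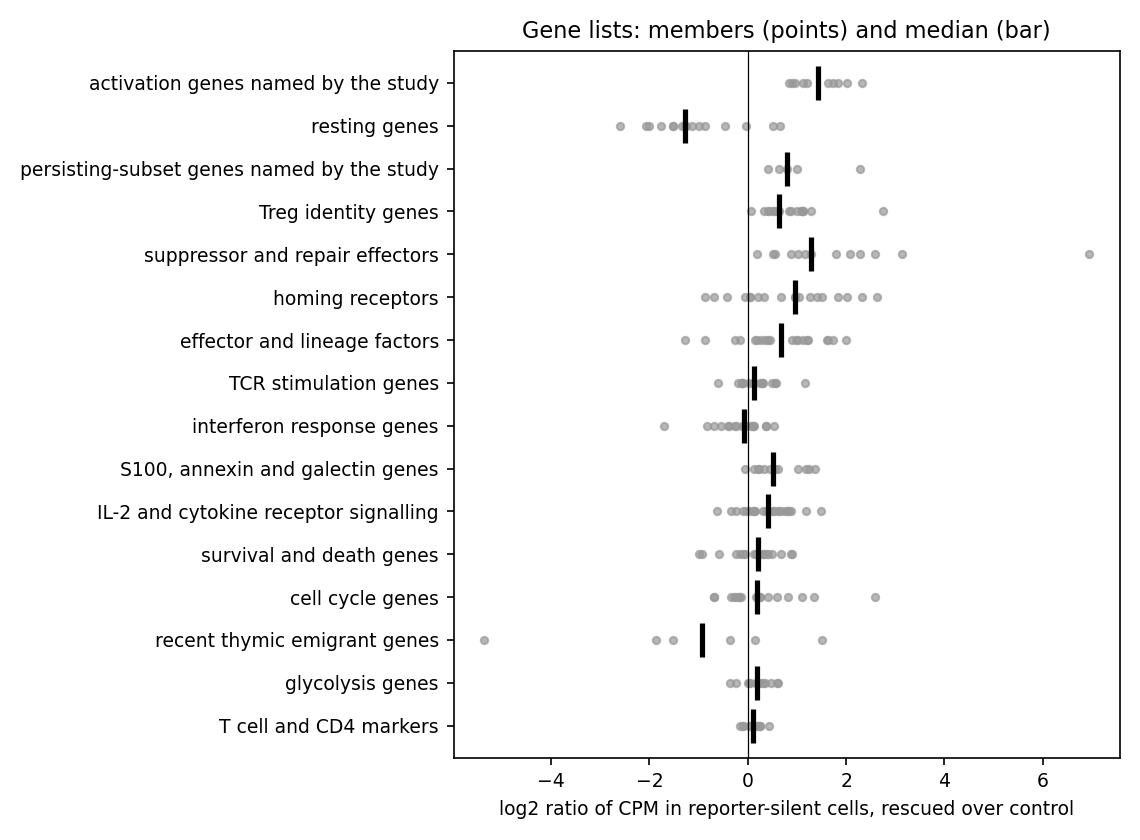
Log2 ratio of CPM in reporter-silent cells, rescued over control (horizontal axis), for the members of 16 gene lists with at least 20 UMIs. Grey points are genes and black bars list medians, which run from -1.27 for resting genes to 1.42 for the study's activation genes.

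The lists were also summed in each cell. Summed over the 10 activation genes, the median silent cell had 0.80 UMIs per 1000 in control and 2.53 in rescued cells, with interquartile ranges from 0.34 to 1.54 and from 1.5 to 3.85. Summed over the 16 resting genes, the medians were 4.80 and 2.12 UMIs per 1000, with interquartile ranges from 2.90 to 6.77 and from 1.29 to 3.38. The distributions overlapped. After thinning to 1000 UMIs, 41.6% of control silent cells (interval 38.9 to 44.3) had UMIs of resting genes and none of activation genes, against 11% of rescued silent cells (interval 9.42 to 12.7). The reverse pattern, activation genes alone, was found in 4.16% and 14.1%, and both lists together in 53.2% and 74.1% of silent cells.

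**Figure D4:**
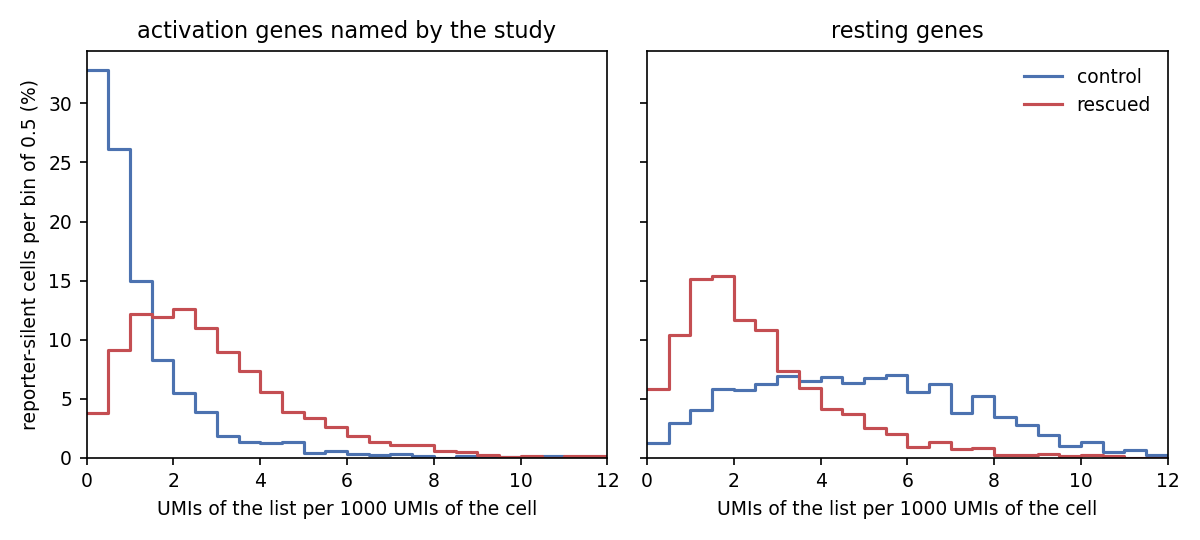
Percentage of reporter-silent cells (vertical axis) by summed UMIs of a list per 1000 UMIs of the cell, in bins of 0.5 (horizontal axis), for control and rescued cells. Rescued cells lie further right for the 10 activation genes (medians 2.53 and 0.80) and further left for the 16 resting genes (medians 2.12 and 4.80), with overlap.

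The gap between the libraries was compared along the reporter classes. The control median for resting genes was 4.80, 3.97 and 3.26 UMIs per 1000 in silent, low and high cells, and the rescued median 2.12, 2.0 and 1.94. For activation genes the control medians were 0.80, 1.10 and 1.72 and the rescued medians 2.53, 2.65 and 3.20. Between libraries, the median log2 ratio of the activation list was 1.42 in silent, 0.84 in low and 0.90 in high cells, and that of the resting list -1.27, -1.18 and -0.75. Reporter-high cells were also deeper, with a median of 4738 UMIs in control and 4563 in rescued cells. The part of depth in the class differences, and that of unequal shares of labelled cells, was not tested.

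**Figure D5:**
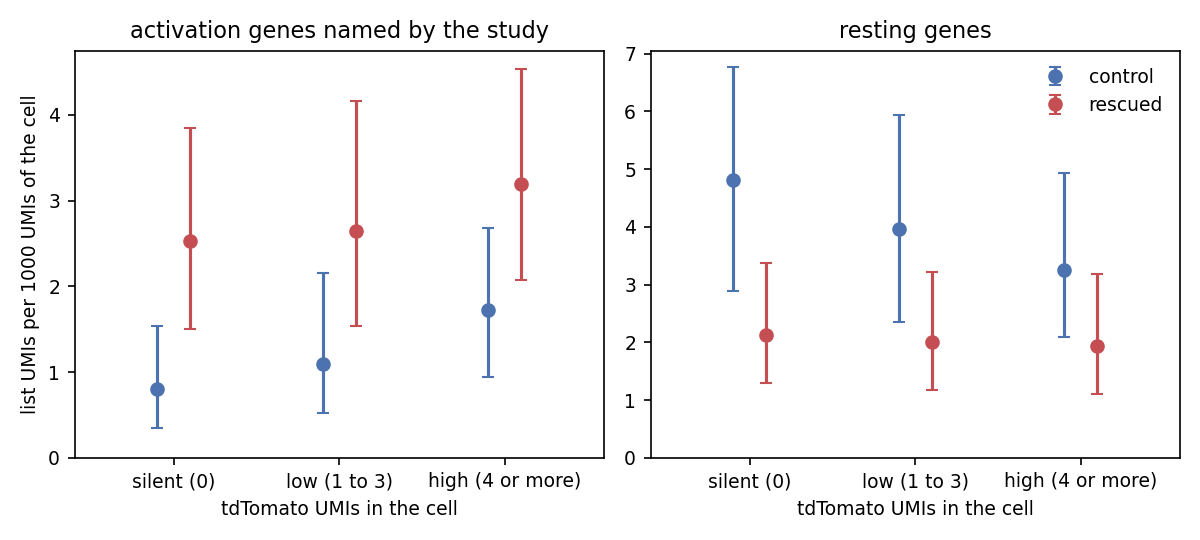
Median (points) and interquartile range over cells (bars) of the summed UMIs of a list per 1000 UMIs of the cell (vertical axis), by tdTomato UMIs in the cell (horizontal axis). The control values go from 4.80 to 3.26 for resting genes across classes and the rescued values from 2.12 to 1.94.

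The difference between the ratio in silent cells and that in reporter-high cells was at least 1.5-fold for 469 of 7449 genes with at least 100 UMIs in each class. It was larger (more toward rescued) in silent cells for 348 genes (4.67%) and smaller for 121 (1.62%). Among the 5391 genes that met the naming minimum, the largest difference was that of Gbp2b, whose log2 ratio was 2.02 greater in silent cells (interval 1.56 to 2.48). Its level was 14.6, 27.1 and 42.2 CPM in control silent, low and high cells, and 101, 112 and 71.7 CPM in rescued cells. Satb1 had 305, 219 and 144 CPM in the control classes but 107, 96.4 and 106 CPM in the rescued classes, so that its log2 ratio was -1.52 in silent and -0.44 in high cells (difference -1.08, interval -1.31 to -0.84). S1pr1 followed the same order, at 228, 173 and 133 CPM in control and 90.5, 84.2 and 105 CPM in rescued cells (difference -1.0, interval -1.25 to -0.76). For Myo1f, an unconventional myosin of leukocytes, the log2 ratio was 2.09 in silent and 0.66 in high cells. For Ms4a4c it was -3.06 and -1.90.

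Some genes changed direction between classes. Ccl5, a chemokine of memory and effector T cells (chr11:83525778-83530518), had 81.1 CPM in control and 217 CPM in rescued silent cells (log2 ratio 1.42, interval 1.26 to 1.59), but 228 and 166 CPM in reporter-high cells (-0.46, interval -0.61 to -0.30). A Ccl5 UMI was found in 80 control and 274 rescued silent cells, and the 10 strongest held 48.5% and 25.3% of its UMIs. Its silent-cell ratio ran from 0.42 to 2.99 over the 4 depth bins. Penk, which encodes the enkephalin precursor (chr4:4133531-4138819), had 28.5 and 64.1 CPM in silent cells (1.17) and 75.8 and 54.5 CPM in reporter-high cells (-0.48). Only 32 control and 88 rescued silent cells had a Penk UMI, and the 10 strongest held 80.3% and 48.5% of its UMIs. Its silent-cell ratio was -0.48 in the second of 4 depth bins (76 and 57 UMIs) and 0.30 when cells with 1 tdTomato UMI were included, so its direction in silent cells was not stable. Ccr9, the receptor for the small intestinal chemokine Ccl25 (chr9:123678439-123784330), was higher in rescued cells of every class, more so in high cells: 32.7 and 92.7 CPM in silent cells (1.5) and 18.8 and 105 CPM in high cells (2.48).

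Suppressor and tissue repair molecules were higher in rescued silent cells for 13 of the 13 members with at least 20 UMIs (Havcr2 had fewer), 10 of them at least 1.5-fold, with a median log2 ratio of 1.28. Il10, Gzma, Tigit and Lgals3 had under 20 control UMIs and passed the minimum only through the rescued group, so the count and the median are a description of the members kept. Il10, the anti-inflammatory cytokine, had 8 UMIs in control and 85 in rescued silent cells (3.13, interval 2.09 to 4.39). Gzmb, a cytotoxic granule protease, had 25 and 182 UMIs (2.58), carried by 14 control and 41 rescued cells. Gzma had 1 UMI in control and 150 in rescued silent cells, the latter in 34 cells. Its ratio was 6.95 with an interval of 4.45 to 12.3. Areg, the repair factor amphiregulin, had 25 and 106 UMIs (1.80), and Tigit, an inhibitory receptor, 10 and 51 (2.07). Tgfb1, a broadly expressed suppressor cytokine, differed least, with 1148 and 1585 UMIs (0.18, interval 0.07 to 0.30).

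Among homing receptors, of which 19 of 21 had at least 20 UMIs, 15 had a ratio above 0 and 4 below, with a median log2 ratio of 0.95, which was 0.53 in cells with a Foxp3 UMI and 0.27 within clusters. The gut-associated receptor Gpr15 had 4 and 30 UMIs (2.63, interval 1.12 to 4.59), and Ccr2, an inflammatory chemokine receptor, 80 and 256 (1.40). Cxcr5, which directs cells to B cell follicles, had 133 and 313 UMIs (0.95), the list's median. The bone marrow receptor Cxcr4 was lower, with 487 and 325 UMIs (-0.86, interval -1.07 to -0.66), as was S1pr4 with 679 and 619 UMIs (-0.41). Itga4, the α4 integrin chain, was at 0.04 (interval -0.07 to 0.15).

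Effector and lineage factors were higher in 16 of the 20 cases, out of 22 listed, with at least 20 UMIs (median 0.68, beside 0.05 over all genes). Of these, 10 were at least 1.5-fold higher and 2 at least 1.5-fold lower, beside 10.5% and 4.85% of all genes. Prdm1, which encodes the effector regulator Blimp-1, had 62 and 301 UMIs (2.0, interval 1.60 to 2.42) in 50 control and 243 rescued cells. Bhlhe40 had 61 and 229 UMIs (1.63), Nfil3 47 and 175 (1.62), and Batf, a factor required for tissue Treg differentiation, 584 and 1431 (1.01, interval 0.87 to 1.15). Gata3, a factor of type 2 helper cells, was plentiful in both groups (686 and 999 UMIs, 0.26, interval 0.12 to 0.40), whereas Tbx21 had 13 and 37 UMIs and Eomes 12 and 8. Runx3 (0.19) and Bcl6 (-0.27) had intervals that held 0.

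By contrast, acute T cell receptor stimulation genes had a median log2 ratio of 0.12, near the 0.05 of all genes. Of the 17 among 19 that had at least 20 UMIs, 11 were above 0. The list was mixed, with 8 intervals above 0 and 3 below. Nr4a3 was highest, with 34 and 93 UMIs (1.17, interval 0.59 to 1.78). Nr4a1, an immediate target of receptor signalling, had 95 and 172 UMIs (0.58), whereas Cd69 had 808 and 907 UMIs (-0.11, interval -0.25 to 0.02) and Myc was lower with 384 and 308 (-0.60). The list median was -0.02 in silent cells with a Foxp3 UMI. Of the interferon response genes, 7 of 19 were above 0, 4 had an interval above 0 and 10 an interval below 0, with a median of -0.08 that reversed sign to 0.035 in cells with at least 4000 UMIs. Genes of the type I response included the lowest, Oasl2 (104 and 39 UMIs, -1.70) and Usp18 (301 and 205 UMIs, -0.83), while the GTPases Gbp7 (0.53) and Iigp1 (0.38) were higher, Irgm1 was at 0.07 (interval -0.09 to 0.22) and Gbp2 was lower (-0.23, interval -0.37 to -0.09).

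The 5 genes that the study named for a persisting subset were all higher in rescued silent cells (median 0.80), and that list too was chosen on these samples. Ifngr1, the interferon-γ receptor chain, had 1906 UMIs in control and 4043 in rescued silent cells (0.80, interval 0.73 to 0.88). Lrrc32, which encodes the TGF-β docking receptor GARP, had 477 and 1161 UMIs (1.0), and Il4ra 532 and 860 (0.41). S100, annexin and galectin genes, listed together with Vim, were higher in 11 of the 12 cases, out of 13 listed, with at least 20 UMIs (median 0.51), led by S100a6 (870 and 2735 UMIs, 1.37) and S100a4 (858 and 2457 UMIs, 1.24).

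Cells were also compared with cells of like transcriptome. Clusters were computed without tdTomato and Foxp3, and 9 of 10 held at least 20 silent cells of each library. They were filled unequally: 1 cluster held 615 control and 33 rescued silent cells, and another 48 and 407. Within clusters, the median log2 ratio was 0.62 for the activation list and -0.25 for the resting list. Foxp3 was at 2.49 and Gbp2b at 2.06 within clusters, Itgae at 1.28 and Tcf7 at -0.87. Ly6c1 was at -0.05 and Klf2 at -0.27, and Igfbp4, an insulin-like growth factor binding protein, reversed from -2.0 to 0.65. Ccl5 (-0.069), Penk (-0.035) and Ccr9 (-0.10) also reversed. The clusters were made from these same genes, so cells of like level were grouped together by construction.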

How the data were processed

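The deposited counts (UMIs per gene and cell, 16098 genes, 7024 cells) were made by the authors with Cell Ranger 3.0 against GRCm38 with the tdTomato sequence added. The methods describe removing cells over 5% mitochondrial transcripts, but in the deposited counts only 165 of 7024 cells were at or under that share, so that filter was not evident with the mitochondrial genes in the file. These builds and tools are from the submitters' processing notes. A normalized table was not used. UMIs were summed over silent cells per library and divided by their summed totals without tdTomato. Exact conditional intervals on ratios, exact Poisson intervals on sums and Clopper-Pearson intervals on shares cover counting error at the 95% level. With 1 library per group no test was run. The ratio and its interval were tested on simulated sums with counting error alone. That test left out the clumping of UMIs in few cells, so it does not show the coverage of the intervals here. Genes named were the 12 highest and 12 lowest ratios among genes with at least 300 UMIs, the 4 highest and 4 lowest class differences, and list examples. That rule skipped genes of antigen receptors, ribosomal proteins and the mitochondrial genome. Lists used genes with at least 20 UMIs in silent cells of both groups together. Members such as Gpr15, Tbx21, Mki67 and Sox4 passed only through the group where they were higher. List counts and medians therefore describe the members kept. Members and lists were chosen with earlier results of these data known. Gene positions are from GENCODE for GRCm38. No doublet caller was run. Clusters used Leiden (leidenalg 0.10.2) on 30 components of 2000 genes. Python 3.11.15, numpy 2.4.6 and scipy 1.17.1 were used. Alternatives were depth, reporter threshold, mitochondrial share, scaling, thinning, gene minimum and clusters.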

Additional observations from a re-analysis of the deposited data

Results flagged for a closer look

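Ccl5, Penk, Ccr6 and Cd83 were picked out because their ratio, rescued over control, pointed up in reporter-silent cells and down in reporter-high cells. The difference of the log2 ratios was 1.88 for Ccl5 (1.42 in silent and -0.46 in reporter-high cells) and 1.64 for Penk (1.17 and -0.48). It was 1.35 for Ccr6, the receptor for Ccl20 (0.96 and -0.39), and 0.87 for Cd83, an activation marker (0.62 and -0.25). In silent cells with a Foxp3 UMI the ratio of Ccr6 was 0.045, and with at least 4000 UMIs 0.31. That of Penk was 0.30 when cells with 1 tdTomato UMI were included. Within clusters, Ccl5 was at -0.069 and Penk at -0.035. With 1 library per group these differences were not tested over replicates.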

How the results depend on the processing

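No paired analysis was possible because a single library was made per group. Gene counts were held to 1.5-fold of the reported value. List medians were held to the range from the median lower to the median upper interval end of the members. Such a range is not an interval of the median and can be wide. For homing receptors it was 0.21 to 1.26, so 0.27 within clusters counted as staying. Of gene counts and list medians under the alternatives, 102 stayed within these limits, 23 moved and 2 reversed. For single genes, held to their counting interval, the numbers were 365, 131 and 4. The count of genes at least 1.5-fold higher (483) was 235 after thinning to 1000 UMIs, 236 within clusters, 1097 with a minimum of 20 UMIs and 159 with 500. The count lower (203) was 505 and 83 with those minimums. For these fold counts, 4608 genes reached the minimum after thinning, 10415 had 20 UMIs and 3837 had 500, against 8202. The number of genes whose ratio differed between classes (469 of 7449) was 114 with 300 UMIs in each class and 155 after thinning. Both of those settings hold fewer genes than the main one, so these counts are not compared as shares. Within clusters the medians were 0.62 for activation, -0.25 for resting, 0.47 for persisting-subset, 0.35 for Treg identity, 0.68 for suppressor, 0.27 for homing (from 0.95), 0.19 for effector factor and 0.18 for S100 genes. In cells with at least 4000 UMIs (396 control, 559 rescued) they were -1.13 for resting, 0.69 for persisting-subset and 0.55 for Treg identity genes. With at most 10% mitochondrial UMIs they were 1.54 for activation, 0.95 for persisting-subset and 0.98 for Treg identity genes. With cells of 0 or 1 tdTomato UMIs the activation median was 1.24, and in cells with a Foxp3 UMI the Treg identity median was 0.51, where selection on Foxp3 lowers its own ratio to 1.07 by construction. The interferon median (-0.08) reversed to 0.035 in cells with at least 4000 UMIs and to 0.069 within clusters. Single genes that reversed within clusters were Igfbp4 (0.65), Ccl5 (-0.069), Penk (-0.035) and Ccr9 (-0.10). Leaving out the 3.5% of cells with the most UMIs, a stand-in for doublets, moved no count or list median beyond those limits. That share was taken over all cells of a library, and 1337 of 1347 control and 1482 of 1496 rescued silent cells were kept. With so few silent cells removed, the results could hardly move, so nothing about doublets is read from it. Causes other than the stated ones were not tested. Depth limits genes with few UMIs, whose intervals are wide, and no alternative supplies a replicate.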

Other observations

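Several further gene groups were measured in silent cells. Cytokine receptor and signalling genes were higher in rescued silent cells in 19 of 24 cases (median log2 ratio 0.42). Il1r2, a decoy receptor for IL-1, had 60 UMIs in control and 206 in rescued silent cells (1.5, interval 1.08 to 1.94), and Il10ra 153 and 423 (1.19). The IL-2 response genes Pim1 (1823 and 3963 UMIs, 0.84) and Cish (541 and 1128 UMIs, 0.78) were higher as well, while Il6ra, the IL-6 receptor chain, was lower (827 and 653 UMIs, -0.62).

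Survival genes were mixed, with 11 of 18 above 0 and a median of 0.20. The pro-survival Bcl2 (-1.0) and the pro-death Bcl2l11 (216 and 138 UMIs, -0.93) were both lower in rescued silent cells, Bcl2a1b was higher (679 and 1514 UMIs, 0.88) and Mcl1 was near equal (3268 and 3570 UMIs, -0.15). Of the cell cycle genes, 10 of 18 were above 0 and 8 below (median 0.18), and the list summed to 2441 and 2198 CPM. Mki67 had 9 and 66 UMIs (2.59, interval 1.58 to 3.78) and Top2a 23 and 71 (1.35), while Ccnd3 (2028 and 1535 UMIs, -0.68) and Tubb5 (3218 and 3215 UMIs, -0.28) were lower. Glycolysis genes were near the background (12 of 14 above 0, median 0.19).

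Of the 11 recent thymic emigrant genes listed, 6 had at least 20 UMIs, and 4 of these 6 were lower. Sox4, a factor of immature T cells, had 68 UMIs in control and 2 in rescued silent cells, a log2 ratio of -5.37 (interval -8.44 to -3.46). It passed the minimum only through the control group, so the count and the list median describe the members kept. Themis, which acts in thymocyte selection, had 159 and 53 UMIs (-1.87), while Ccr9, on the same list, was higher (1.5). The list median was -0.94. Among genes of conventional effector CD4 cells, 4 had at least 20 UMIs (median 0.25), with Cd40lg lower (106 and 68 UMIs, -0.92) and Tnf higher (115 and 227 UMIs, 0.70).

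The 5 CD8 T and NK markers with at least 20 UMIs had ratios below 0 (median -0.80), with an interval below 0 for 2 of them, among which Gzmk had 19 and 2 UMIs. The 4 B cell markers with at least 20 UMIs were mixed, 2 above 0 and 2 below, from -2.94 to 1.53 (median -0.32). The red blood cell markers summed to 0 UMIs in control and 10 in rescued silent cells.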
